A study of Mus musculus with 15 samples.

Results

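The 35 genes described here were listed by name as genes of naive pluripotency in mouse embryonic stem (ES) cells and of the pathway of the cytokine LIF. Their roles are mixed, and downstream genes and regulators that act outside the naive state are among them. They were measured by every non-control array probe that bears the symbol of a member or its older symbol. All 35 were measured, by 50 probes, among 21184 genes and 39429 probes in all. The 15 arrays comprised 4 of EB9 KD33, 4 of EB9 control, 4 of ES KD33 and 3 of ES control. KD33 names cells labelled as depleted of Cbx7, a chromodomain subunit of Polycomb repressive complex 1, which silences developmental genes. The controls carry the treatment label none, and the series' design text calls the ES control shCtr. Embryoid bodies, aggregates in which ES cells differentiate, carry the name EB9 in the labels. KD33 is a single depletion. The design text calls the replicates biological without naming separate cultures, so that p-values measure the spread between these samples.

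Mouse ES cells renew themselves in the presence of LIF, which binds the LIF receptor and its partner gp130 and leads to phosphorylation of the transcription factor Stat3 by JAK kinases. Stat3 and a set of naive transcription factors act together with the core factors Oct4 (Pou5f1), Sox2 and Nanog. Naive genes are switched off when ES cells leave this state, whereas some of the core and accessory factors stay on in the early epiblast or in progenitor cells.

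A level is given throughout as the log2 of the processed signal of a probe minus the 75th percentile of its array, so that 0 is that percentile and 1 unit is a doubling. Levels of different genes are not compared with each other, since probes differ in brightness. A difference is in log2 units with its moderated standard error (SE) from limma, and it passed where its p-value, adjusted over all 21184 genes by the Benjamini-Hochberg method, was under 0.05. The share of features well above background was 62.5% to 69% on 14 arrays and 75.4% on EB9 control 2. Cbx7 had a pair of probes. The probe of its RefSeq transcript was well above background on 2 of 4 EB9 KD33, 2 of 4 EB9 control, 2 of 4 ES KD33 and all 3 ES control arrays, and it differed between KD33 and control ES cells by -1.91 ± 1.23 (SE, adjusted p = 0.256 over all kept probes), or by -1.41 ± 0.17 with the slide as a block (adjusted p = 1e-04). In EB9 its difference was -0.27 ± 1.14 (adjusted p = 0.92), and the other Cbx7 probe passed in neither comparison. Arrays of a group always had the same position on a slide, so that position and group cannot be told apart.

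All 35 genes were well above background on all 15 arrays. The marker genes fixed for ES cells (Pou5f1, Nanog, Zfp42, Esrrb and Klf4) were thus present in the ES groups, and 13 of the 16 measured germ layer markers were well above background on every ES array. Afp, Hba-x and Ttr were not so on any ES array.

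Embryoid bodies had less of nearly all of these RNAs than ES cells, and far less of most. In KD33, 32 of the 35 genes were lower in EB9 than in ES cells and 2 were higher, where 77.9% of all genes passed (33.7% higher and 44.2% lower). In control, 32 were lower and 2 higher, where 74.8% of all genes passed (33.3% higher and 41.5% lower). The median difference of the 35 genes was -3.13 in KD33 and -3.54 in control, against -0.18 and -0.14 over all genes tested. Scaling by the probes detected on all arrays put those medians of all genes at -0.05 in KD33 and -0.07 in control. In bulk RNA, fewer cells of a type and less RNA per cell cannot be told apart. EB9 and ES arrays did not overlap for 34 of the 35 genes in KD33 and for 34 in control, where 74.2% and 72.9% of all genes did not overlap.

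**Figure D1:**
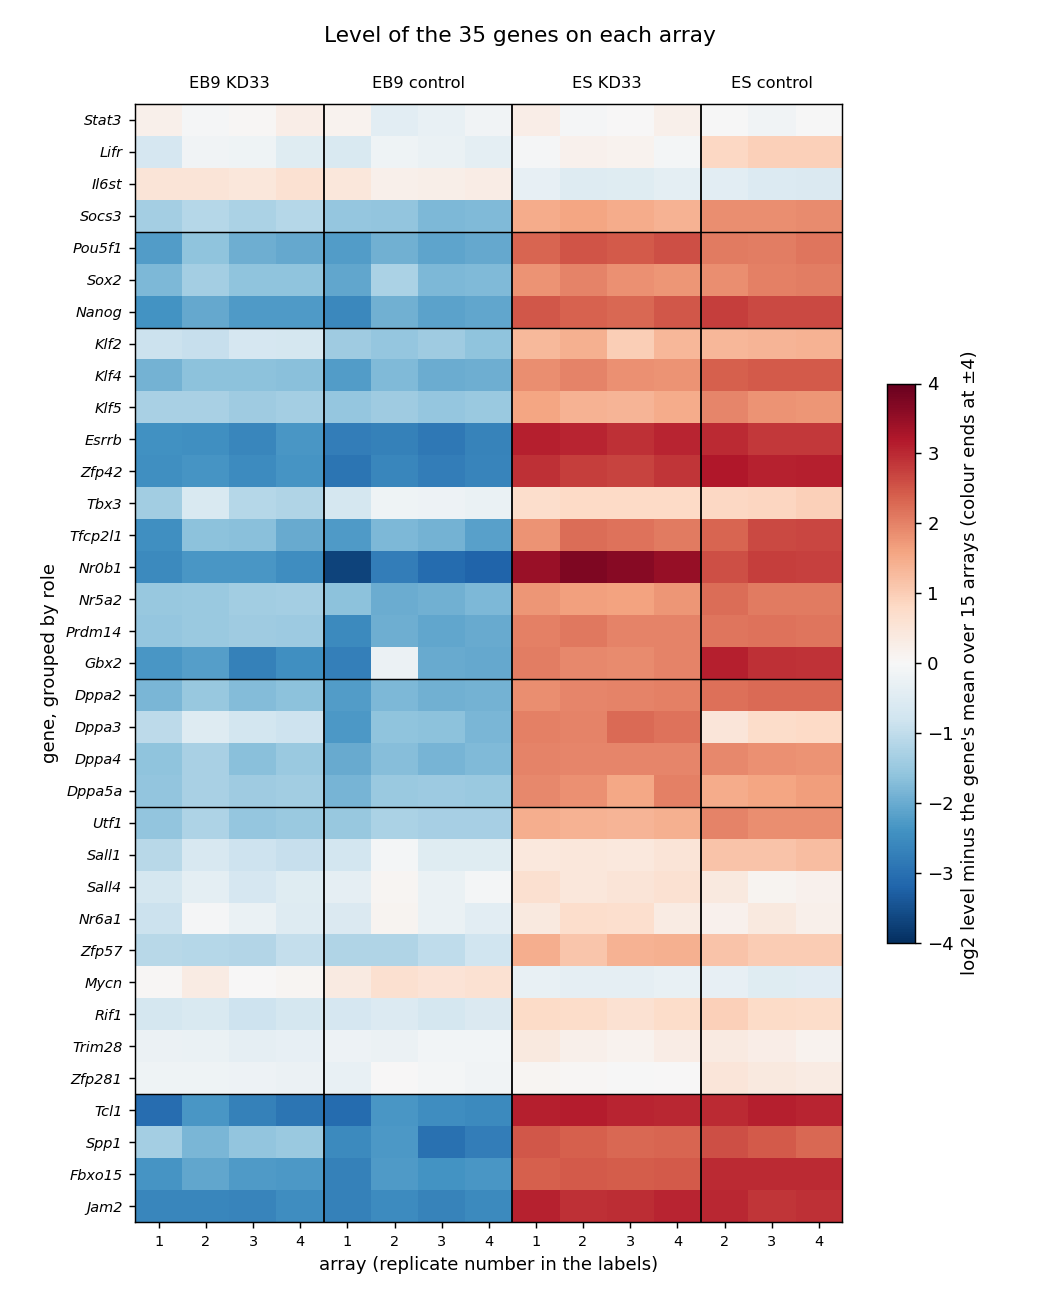
Each cell gives the log2 level of a gene (rows, grouped by role) on an array (columns, by group and replicate number) minus the mean of that gene over the 15 arrays; colour ends at ±4. Most rows are blue in the 8 EB9 arrays and red in the 7 ES arrays, Il6st and Mycn run the other way, and Gbx2 on EB9 control 2 stands apart from the other EB9 arrays.

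The deepest falls were those of the orphan nuclear receptor Nr0b1 (Dax1), which was lower in EB9, with a difference of -6.01 ± 0.15 in KD33 and of -5.88 ± 0.16 in control. Zfp42 (Rex1), a zinc finger protein used as a marker of naive cells, differed by -5.24 ± 0.08 in KD33 and -5.87 ± 0.08 in control, which is 37.8-fold and 58.5-fold. Esrrb, an orphan nuclear receptor of the naive network, differed by -5.49 ± 0.07 and -5.64 ± 0.08 in KD33 and control. The 4 genes grouped as downstream fell together. Tcl1, a coactivator of Akt, differed by -5.83 in KD33 and -5.66 in control, the adhesion molecule Jam2 by -5.59 and -5.55, the F-box protein gene Fbxo15 by -4.68 and -5.4, and Spp1, the secreted protein osteopontin, by -3.94 and -5.09.

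At the other end, several regulators that act well beyond ES cells moved little. Trim28, a corepressor that works with KRAB zinc finger proteins, was lower in EB9, with a difference of -0.55 ± 0.06 in KD33 and -0.43 ± 0.07 in control, and the zinc finger gene Zfp281 differed by -0.23 ± 0.06 and -0.52 ± 0.07. Zfp281 no longer passed in KD33 when arrays were scaled by the probes detected on all arrays (-0.1, adjusted p = 0.167). Nr6a1 (GCNF), a nuclear receptor that represses Pou5f1 during differentiation, was lower, with a difference of -0.95 ± 0.17 in KD33 and -0.55 ± 0.19 in control, and the control call was lost without EB9 control 1 or without ES control 3. Higher in EB9 were Mycn, a Myc family transcription factor, by 0.45 ± 0.08 in KD33 and 0.97 ± 0.08 in control, and Il6st (gp130) by 0.95 ± 0.07 and 0.81 ± 0.07. The remaining gene, Stat3, did not pass, with 0.01 ± 0.11 in KD33 (adjusted p = 0.966) and -0.12 ± 0.12 in control (adjusted p = 0.4). A dimmer Stat3 probe was lower in EB9 than in ES cells, with a difference of -0.28 ± 0.1 in KD33 and -0.32 ± 0.11 in control (adjusted p = 0.0243 and 0.0196 over all kept probes).

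**Figure D2:**
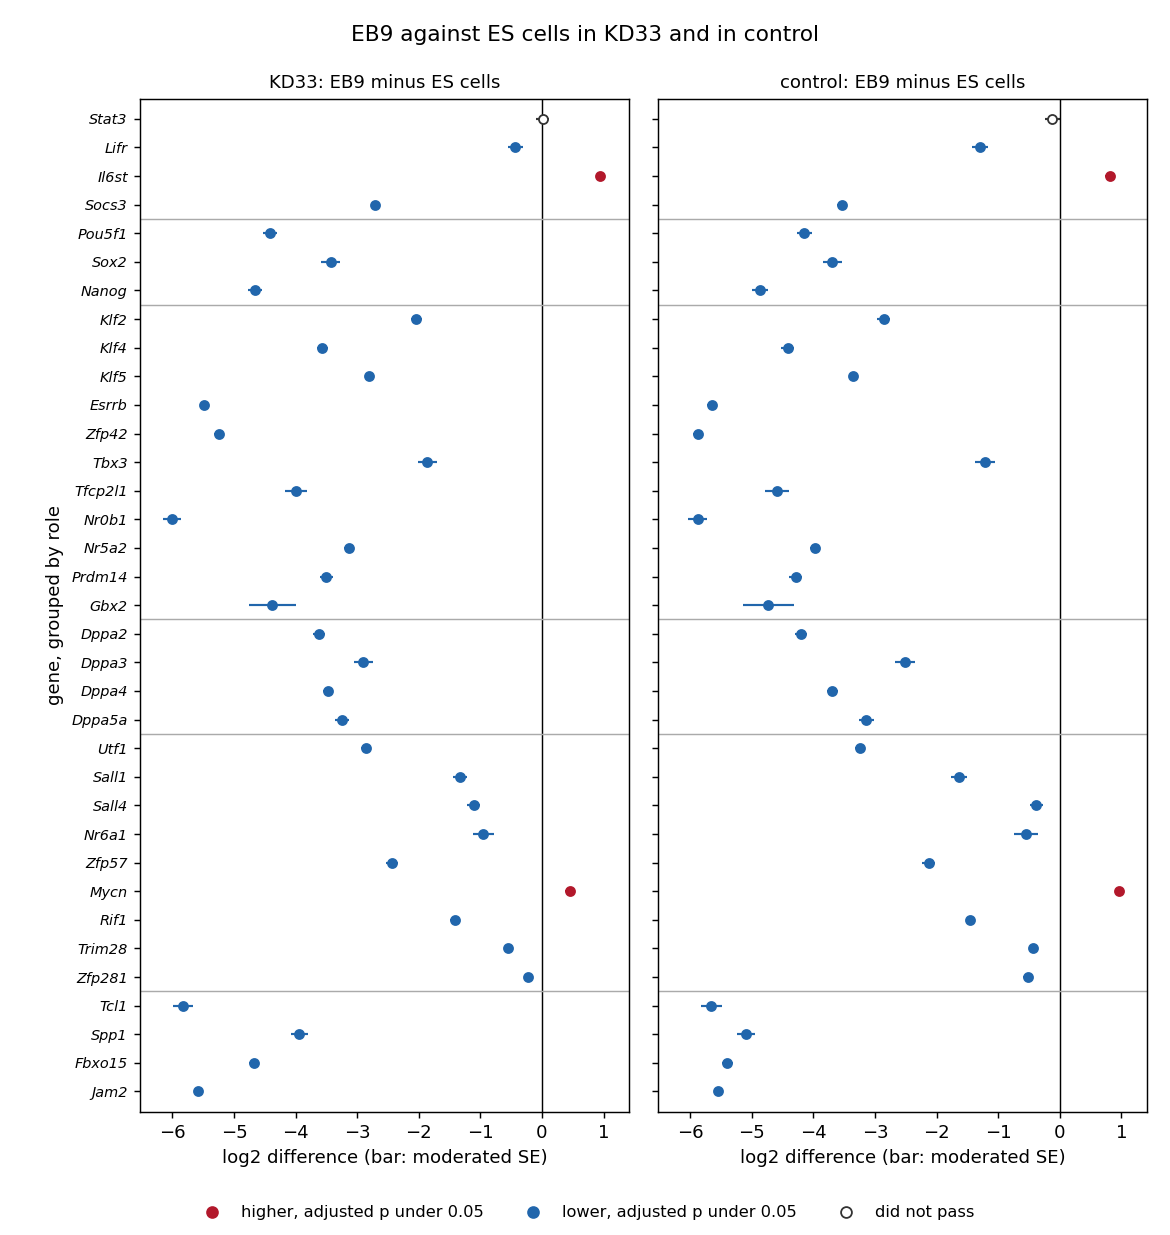
Log2 difference of EB9 minus ES cells for each gene, in KD33 (left panel) and control (right panel); bars are moderated SE, red and blue points passed. In each panel 32 genes lie left of 0 and passed, and Il6st and Mycn lie right of it.

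Sequence before the transcription start was examined for short elements bound by the factors named above, in the 250 bases upstream of the first listed start, for the 24 genes that the RefSeq promoter table holds (build GRCm38.p6). Klf5, Tbx3, Dppa2, Dppa3, Dppa4, Dppa5a, Sall4, Prdm14, Fbxo15, Jam2 and Rif1 have no entry there. Searched on both strands were the Stat element TTCNNNGAA, the octamer-like TTTGCAT and the nuclear receptor element AAGGTCA. The Stat element occurred in 2 of 24 promoters (8.33%; Esrrb and Socs3), against 7.18% of all 27018 promoters. The octamer-like element occurred in 3 (12.5%; Sox2, Nanog and Zfp42), against 4.06%, and the nuclear receptor element in 1 (4.17%; Lifr), against 4.05%. No matches overlapped. The median ratio of observed to expected CpG was 0.6 in the 24 promoters and 0.38 in all promoters. A match is a run of letters and no evidence of binding. The promoters of a feedback target of Stat3, of a naive receptor gene and of the pair of core and naive markers are shown, read 5′ to 3′ on the strand of the gene and ending at the base before the start, with the Stat element (Socs3, Esrrb) or the octamer-like element (Nanog, Zfp42) in capitals. Socs3 lies at chr11:117969367-117969616 (minus strand), Esrrb at chr12:86360867-86361116 (plus strand), Nanog at chr6:122707239-122707488 (plus strand) and Zfp42 at chr8:43307010-43307259 (minus strand).
Socs3: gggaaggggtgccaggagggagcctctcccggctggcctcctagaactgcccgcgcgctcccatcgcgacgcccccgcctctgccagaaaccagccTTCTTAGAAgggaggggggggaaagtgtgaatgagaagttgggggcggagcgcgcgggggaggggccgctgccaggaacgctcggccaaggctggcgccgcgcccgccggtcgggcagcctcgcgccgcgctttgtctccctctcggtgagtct
Esrrb: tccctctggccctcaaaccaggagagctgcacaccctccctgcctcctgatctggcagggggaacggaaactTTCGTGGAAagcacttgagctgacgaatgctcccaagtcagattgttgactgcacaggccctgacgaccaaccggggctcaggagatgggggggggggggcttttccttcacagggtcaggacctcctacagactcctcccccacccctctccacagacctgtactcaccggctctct
Nanog: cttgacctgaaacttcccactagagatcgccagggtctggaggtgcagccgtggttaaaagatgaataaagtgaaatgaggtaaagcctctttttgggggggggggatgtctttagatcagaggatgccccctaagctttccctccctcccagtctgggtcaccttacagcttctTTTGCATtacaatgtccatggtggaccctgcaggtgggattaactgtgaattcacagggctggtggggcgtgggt
Zfp42: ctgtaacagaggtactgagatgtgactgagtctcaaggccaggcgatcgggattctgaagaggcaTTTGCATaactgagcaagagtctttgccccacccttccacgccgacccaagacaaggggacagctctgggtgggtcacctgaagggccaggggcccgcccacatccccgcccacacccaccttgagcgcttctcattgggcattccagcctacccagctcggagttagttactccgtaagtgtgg

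KD33 was set against control at each stage to ask how depletion of Cbx7 goes with the level of these genes in differentiated and in undifferentiated cells. In EB9, 11 of the 35 genes rose and 4 fell in KD33, where 15.2% of all genes passed (7.96% higher and 7.2% lower). In ES cells, 4 rose and 11 fell, where 38.5% of all genes passed (22% higher and 16.5% lower). The median difference of the 35 genes was 0.13 in EB9 and -0.11 in ES cells, against -0.01 and 0.04 over all genes. Read against the background, 15 of 35 genes is a larger share than 15.2% in EB9 and a similar one to 38.5% in ES cells. KD33 and control arrays did not overlap for 14 of the 35 genes in EB9, where 15.7% of all genes did not, and for 21 in ES cells, where 49.6% did not. All 15 calls of each stage kept their sign on every slide that held both groups (4 slides in EB9, 3 in ES cells). The slides hold the same arrays that gave the calls, so that this is no separate test.

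**Figure D3:**
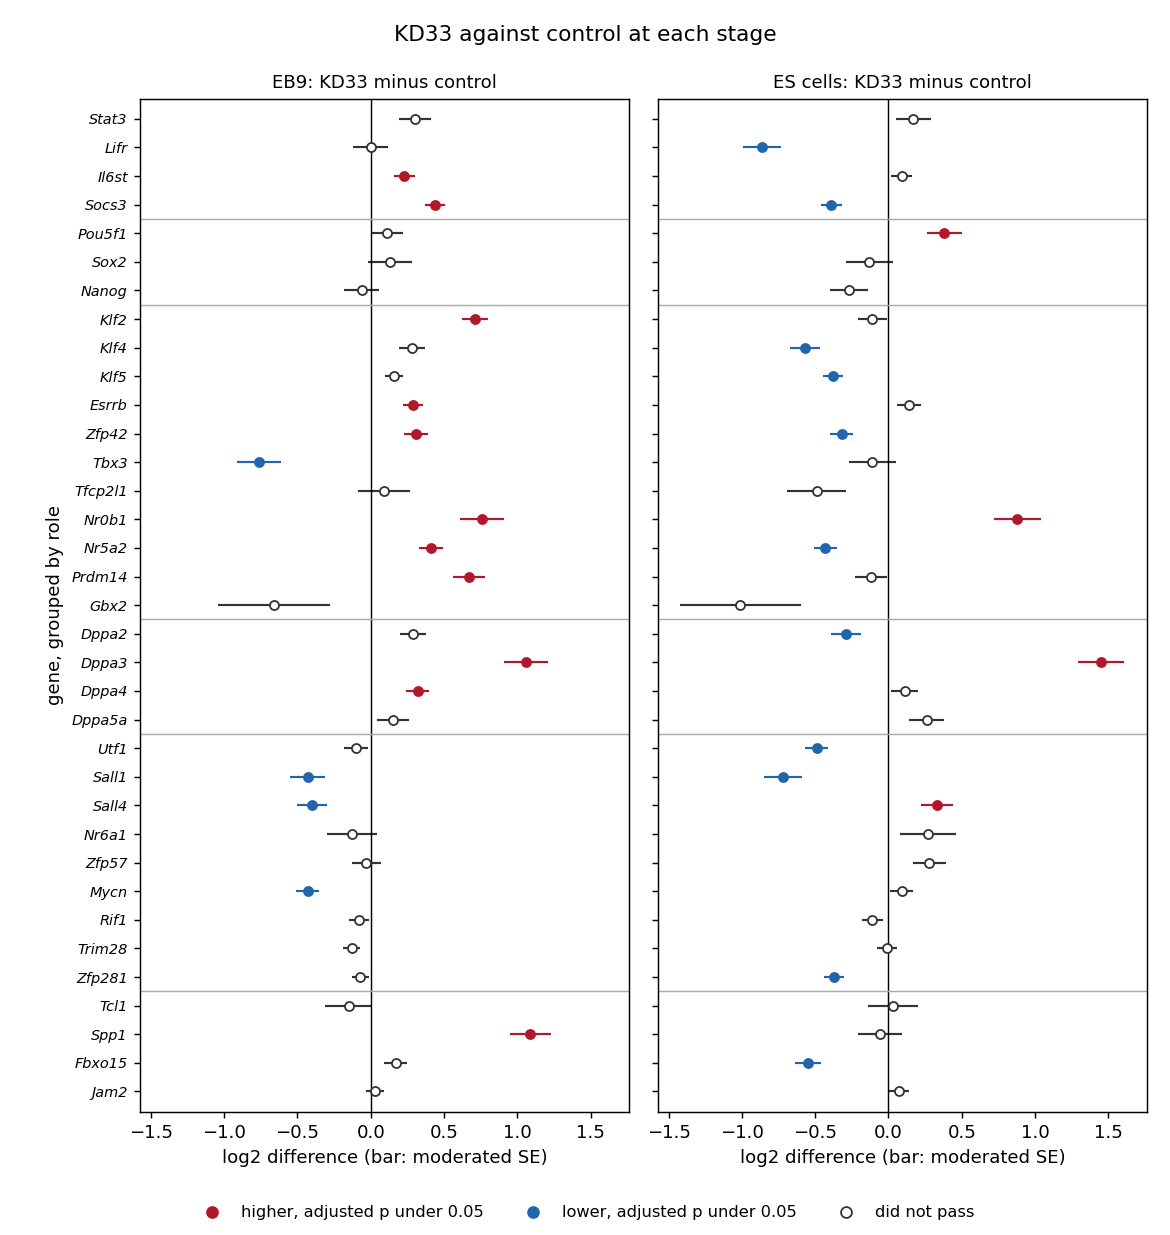
Log2 difference of KD33 minus control for each gene in EB9 (left panel) and ES cells (right panel); bars are moderated SE, filled points passed. Dppa3 and Nr0b1 lie to the right in both panels, and most other filled points lie right of 0 in EB9 and left of 0 in ES cells.

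The difference between the stages was itself tested. The effect of KD33 was more positive in EB9 than in ES cells for 13 genes and more negative for 3, where 29.7% of all genes passed (12.7% higher and 17% lower). Among the calls of all genes, 42.8% were higher, or 53% when arrays were scaled by the probes detected on all arrays. With the slide as a block, 14 genes rose and 4 fell in EB9, where 5664 of all 21184 genes passed. In ES cells 5 rose and 12 fell, where 10056 of all genes passed. The effect was then more positive in EB9 for 14 genes and more negative for 4, where 8682 of all genes passed. All calls of the 35 genes made without the block were kept. The block added Tfcp2l1 (0.56 ± 0.12, adjusted p = 0.00539) and Nr6a1 (-0.45 ± 0.14, adjusted p = 0.0295) to the differences between the stages. Of the 35 genes, Nr5a2, Socs3 and Zfp42 rose in EB9 and fell in ES cells, and for all 3 the difference between the stages passed. Sall4 fell in EB9 and rose in ES cells, and its difference passed too. Another 7 genes (Dppa2, Fbxo15, Klf4, Klf5, Lifr, Utf1 and Zfp281) fell in ES cells and did not pass in EB9, with a difference between the stages that passed for each. Dppa3 and Nr0b1 rose at both stages, and Sall1 fell at both. Pou5f1 rose in ES cells without passing in EB9, 6 genes rose and 2 fell in EB9 without passing in ES cells, and 12 genes passed in neither.

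In the LIF pathway, the receptor fell in KD33 ES cells and the feedback inhibitor moved in opposite directions at the stages. Lifr, the subunit that binds LIF, had levels of -0.03, 0.49, 0.45 and 0.14 on the EB9 KD33 arrays, against 0.01, 0.45, 0.37 and 0.23 on the EB9 control arrays. In ES cells Lifr had 0.59, 0.81, 0.78 and 0.57 in KD33, against 1.46, 1.6 and 1.59 in control. All ES KD33 arrays thus lay below all ES control arrays, while the EB9 groups overlapped. The Lifr difference was 0 ± 0.12 in EB9 (adjusted p = 0.989) and -0.86 ± 0.13 in ES cells (1.82-fold lower, adjusted p = 0.000243), and the stages differed by 0.86 ± 0.18 (adjusted p = 0.00336). The other Lifr probes gave -0.83 and -0.71 in ES cells and passed as well. The probe with -0.71 was also lower in KD33 EB9 (-0.29 ± 0.09, adjusted p = 0.0424 over all kept probes), and in KD33 it did not differ between EB9 and ES cells by a difference that passed (0.08 ± 0.09, adjusted p = 0.408). The probe used for Lifr lies at chr15:7147319-7147378 (build mm9).

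Il6st (gp130), the signalling subunit that Lifr shares with other receptors, had levels of 0.86 to 1 in EB9 KD33 and 0.61 to 0.84 in EB9 control, without overlap. Its difference was 0.23 ± 0.07 in EB9 (adjusted p = 0.034) and 0.09 ± 0.07 in ES cells (adjusted p = 0.358). The EB9 call was lost in 8 of the other settings, 6 of which left out a single EB9 array (adjusted p up to 0.106). Stat3, the transcription factor at the end of the pathway, passed at neither stage, with 0.3 ± 0.11 in EB9 (adjusted p = 0.104) and 0.17 ± 0.12 in ES cells (adjusted p = 0.316). With the slide as a block Stat3 passed in EB9 (0.3 ± 0.07, adjusted p = 0.0112), and a dimmer Stat3 probe was higher by 0.52 ± 0.1 in EB9 and 0.48 ± 0.11 in ES cells, with an adjusted p of 0.00647 and 0.00431.

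Socs3 encodes an inhibitor of gp130 signalling whose gene is itself induced by Stat3. Its levels were 2.14, 2.34, 2.23 and 2.34 in EB9 KD33, against 1.94, 1.91, 1.7 and 1.72 in EB9 control. In ES cells they were 4.98, 5.05, 4.98 and 4.89 in KD33, against 5.36, 5.35 and 5.37 in control. The groups did not overlap at either stage, and KD33 was the higher in EB9 and the lower in ES cells. The difference was 0.44 ± 0.07 in EB9 (adjusted p = 0.00114) and -0.39 ± 0.07 in ES cells (adjusted p = 0.000915), and the stages differed by 0.83 ± 0.1 (adjusted p = 5.88e-05).

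Of 25 other genes of the LIF and JAK-STAT pathway, 23 were measured, and none passed in EB9 (limma; 4 at an unadjusted p under 0.05, and 3 with the slide as a block), while 2 rose and 5 fell in ES cells. The list had a median difference of -0.01 in EB9 and -0.13 in ES cells, and 15.2% and 38.5% of all genes passed at these stages. The largest changes that passed in ES cells were those of Cntf, ciliary neurotrophic factor, a ligand that also signals through gp130 and Lifr, by -1.52 ± 0.06 (adjusted p = 1.65e-08), and of Il6ra, the binding subunit for interleukin 6, by -0.58 ± 0.11 (adjusted p = 0.000852). Cntf averaged -0.92 ± 0.06 in KD33 ES cells (SD, n = 4) and 0.6 ± 0.03 in control ES cells (SD, n = 3). The genes of Lif and Il6 did not pass the filter on dim probes.

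Of the core factors, only Pou5f1 passed, and only in ES cells. Pou5f1, which encodes Oct4, had levels of -0.44, 0.18, -0.18 and -0.26 in EB9 KD33 and of -0.44, -0.13, -0.31 and -0.25 in EB9 control. In ES cells Pou5f1 had 4.1, 4.3, 4.24 and 4.35 in KD33, against 3.86, 3.82 and 3.92 in control. It rose in KD33 ES cells by 0.38 ± 0.12 (1.3-fold, adjusted p = 0.0246), with every KD33 array above every control array. That call was lost under quantile normalization (0.26, adjusted p = 0.115) and without any of ES KD33 2, ES KD33 4, ES control 2 or ES control 3 (adjusted p from 0.0532 to 0.0798). In EB9 the groups overlapped, with a difference of 0.11 ± 0.11 (adjusted p = 0.604).

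Sox2, the partner of Oct4 on DNA, had levels of -1.14, -0.69, -0.95 and -0.96 in EB9 KD33, against -1.43, -0.6, -1.13 and -1.12 in EB9 control. In ES cells it had 2.44, 2.64, 2.49 and 2.42 in KD33, against 2.52, 2.66 and 2.69 in control. The groups overlapped at both stages, and the differences of 0.13 ± 0.15 in EB9 and -0.13 ± 0.16 in ES cells did not pass (adjusted p = 0.621 and 0.59). Nanog, a homeodomain factor, had levels of 0.44, 0.76, 0.54 and 0.55 in EB9 KD33, against 0.24, 0.9, 0.66 and 0.73 in EB9 control. In ES cells Nanog had 5.31, 5.17, 5.12 and 5.31 in KD33, against 5.58, 5.46 and 5.47 in control. The ES groups did not overlap, yet the difference of -0.27 ± 0.13 did not pass (adjusted p = 0.111). It passed in 5 other settings (-0.48 to -0.19, adjusted p from 0.0174 to 0.0234). Among them were quantile normalization (-0.43, adjusted p = 0.0174) and the authors' deposited log2 values (-0.48, adjusted p = 0.019).

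The Nanog probes disagreed about differentiation. The probe that represents Nanog, at chr6:122664590-122664649 (build mm9), was lower in EB9 than in ES cells, with a difference of -4.87 in control. A dimmer probe at chr6:122663676-122663735, well above background on all 15 arrays, was higher in EB9 by 1.63 ± 0.19 (adjusted p = 2.7e-06 over all kept probes), with -2.61 ± 0.23 in EB9 control (SD, n = 4) and -4.23 ± 0.4 in ES control (SD, n = 3). For KD33 against control the probes differed in sign. The dimmer probe gave 0.45 ± 0.19 in ES cells and 0.4 ± 0.17 in EB9, and passed at neither stage (adjusted p = 0.0734 and 0.148). The probe that represents Nanog gave -0.27 ± 0.13 and -0.06 ± 0.12.

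Among the 11 naive factors, 6 rose and 1 fell in KD33 EB9 (15.2% of all genes passed). In KD33 ES cells 1 rose and 4 fell (38.5% of all genes passed). Nr0b1 was the factor that rose at both stages. Its levels were -3.95, -3.75, -3.75 and -3.89 in EB9 KD33, against -5.1, -4.17, -4.48 and -4.61 in EB9 control. In ES cells they were 2.04, 2.34, 2.23 and 2.08 in KD33, against 1.18, 1.36 and 1.33 in control. No arrays overlapped, and Nr0b1 was higher by 0.76 ± 0.15 in EB9 (1.69-fold, adjusted p = 0.00608) and by 0.88 ± 0.16 in ES cells (1.84-fold, adjusted p = 0.000917). Fitted to the EB9 arrays alone, the EB9 call was lost (adjusted p = 0.0574). The stages did not differ by a difference that passed (-0.12 ± 0.22, adjusted p = 0.749).

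The Krüppel-like factors, zinc finger proteins that can stand in for each other in ES cells, each had a KD33 effect that was more positive in EB9 than in ES cells. Klf2 had levels of 2.62, 2.55, 2.82 and 2.77 in EB9 KD33, against 2.06, 1.93, 2.05 and 1.88 in EB9 control. In ES cells Klf2 had 4.78, 4.89, 4.45 and 4.82 in KD33, against 4.81, 4.85 and 4.87 in control. Klf2 rose in EB9 by 0.71 ± 0.09 (1.64-fold, adjusted p = 0.000456) without overlap, and in ES cells the difference was -0.11 ± 0.1 (adjusted p = 0.438). With the authors' deposited log2 values Klf2 passed as lower in KD33 ES cells (-0.26, adjusted p = 0.0351).

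Klf4, a direct target of Stat3 signalling, had levels of -0.43, -0.17, -0.17 and -0.21 in EB9 KD33, against -0.78, -0.31, -0.53 and -0.48 in EB9 control. In ES cells it had 3.32, 3.43, 3.28 and 3.27 in KD33, against 3.86, 3.92 and 3.9 in control. All ES KD33 arrays lay below the ES controls, and the fall was -0.57 ± 0.1 (1.48-fold, adjusted p = 0.000486). In EB9 a few arrays overlapped and the difference of 0.28 ± 0.09 did not pass (adjusted p = 0.0523), but it did with the slide as a block (0.28 ± 0.07, adjusted p = 0.0155). Klf5 fell in ES cells, with a difference of -0.38 ± 0.07 (adjusted p = 0.000753) and differed by 0.16 ± 0.06 in EB9 (adjusted p = 0.119). The difference between the stages was 0.82 ± 0.13 for Klf2, 0.85 ± 0.13 for Klf4 and 0.54 ± 0.09 for Klf5.

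Zfp42 and the nuclear receptor Nr5a2 (LRH-1), which can bind the Pou5f1 promoter, went opposite ways at the stages. Zfp42 was higher in KD33 EB9 by 0.31 ± 0.08 (adjusted p = 0.0169) and lower in KD33 ES cells, with a difference of -0.32 ± 0.08 (adjusted p = 0.00806), without overlap at either stage. Nr5a2 was higher by 0.41 ± 0.08 in EB9 (adjusted p = 0.00448) and lower, with a difference of -0.43 ± 0.08 in ES cells (adjusted p = 0.00126), again without overlap. The EB9 call of Zfp42 was lost without EB9 KD33 4 (adjusted p = 0.0555) and when the EB9 arrays were fitted alone (adjusted p = 0.0791). That of Nr5a2 was lost when its probes were averaged (0.12, adjusted p = 0.632). Esrrb rose in EB9 by 0.29 ± 0.07 (adjusted p = 0.0168) but did not pass without EB9 KD33 4 or EB9 control 3. It also did not pass when the EB9 arrays were fitted alone (adjusted p = 0.0746) and when its dim second probe was averaged in (0.07, adjusted p = 0.516). In ES cells Esrrb did not pass (0.14 ± 0.08, adjusted p = 0.159), but it did with averaged probes (0.27, adjusted p = 0.0067) and with array weights (0.21, adjusted p = 0.003). The dim second probe, well above background on only 7 arrays, was higher in KD33 ES cells by 0.4 ± 0.12 (adjusted p = 0.0196 over all kept probes). For that probe the stages differed by -0.54 ± 0.17 (adjusted p = 0.0258), against 0.14 ± 0.1 for the probe used (adjusted p = 0.35).

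Prdm14, a PR-domain protein that holds down FGF signalling in naive cells, was higher in KD33 EB9. Its levels were -2.56, -2.47, -2.42 and -2.46 in EB9 KD33, against -3.56, -2.95, -3.07 and -3.01 in EB9 control. In ES cells they were 1.01, 1.11, 0.99 and 0.99 in KD33, against 1.13, 1.16 and 1.14 in control. The difference was 0.67 ± 0.11 in EB9 (1.59-fold, adjusted p = 0.00157) and -0.12 ± 0.11 in ES cells, where it did not pass (adjusted p = 0.456) although the arrays did not overlap.

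Tbx3, a T-box factor of the LIF-dependent network that is also active in later tissues, was the naive factor that fell in KD33 EB9. Its levels were 1.99, 2.78, 2.24 and 2.18 in EB9 KD33, against 2.69, 3.23, 3.17 and 3.13 in EB9 control. In ES cells they were 4.08, 4.17, 4.18 and 4.18 in KD33, against 4.21, 4.25 and 4.34 in control. EB9 KD33 2 lay above EB9 control 1, so that the EB9 groups overlapped. Tbx3 fell in EB9, with a difference of -0.76 ± 0.15 (1.69-fold, adjusted p = 0.00586; 0.0645 when the EB9 arrays were fitted alone) and differed by -0.11 ± 0.16 in ES cells (adjusted p = 0.663). The difference between the stages, -0.65 ± 0.22 (adjusted p = 0.0424), was lost in 18 of the other settings.

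Gbx2, a homeobox gene induced through Stat3, and Tfcp2l1, another target of that pathway, did not pass in KD33 ES cells by the probes that represent them. Gbx2 had levels of -1.39, -1.49, -1.54 and -1.43 in ES KD33, against -0.32, -0.51 and -0.53 in ES control, without overlap and with a difference of -1.01 ± 0.41 (adjusted p = 0.0715). EB9 control 2, at -3.66 where the other EB9 controls lay at -6.17, -5.43 and -5.48, enters the shared spread, and without that array the ES difference had an adjusted p of 0.000458. Tfcp2l1 differed by -0.49 ± 0.2 in ES cells (adjusted p = 0.0687), without overlap, and passed in 10 other settings (adjusted p from 0.000341 to 0.048), the slide as a block among them (-0.47 ± 0.09, adjusted p = 0.00224). A dimmer Tfcp2l1 probe was lower in KD33 ES cells (-0.6 ± 0.22, adjusted p = 0.0437 over all kept probes). In EB9 the difference of Gbx2 was -0.66 ± 0.38 (adjusted p = 0.287), and it was -0.15 without EB9 control 2 (adjusted p = 0.624). Without that array the difference between the stages passed for Gbx2 (0.86, adjusted p = 0.0154), and with all arrays it did not (0.35 ± 0.56, adjusted p = 0.715). In EB9 Tfcp2l1 differed by 0.09 ± 0.18 (adjusted p = 0.806).

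**Figure D4:**
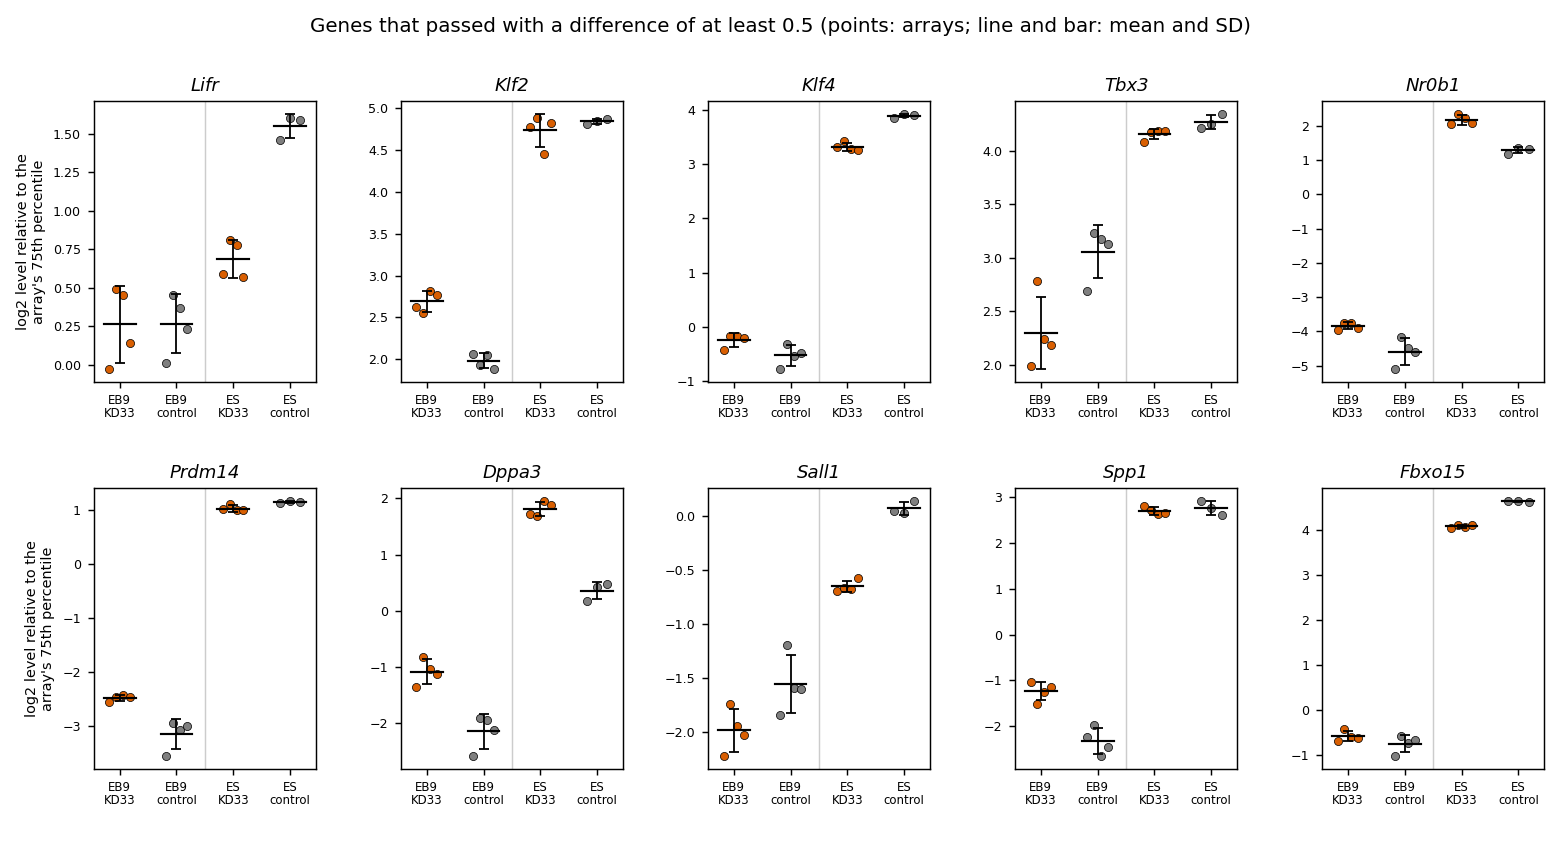
Log2 level on each array (points; KD33 orange, control grey) with group mean and SD for the 10 genes that passed with a difference of at least 0.5 in EB9 or in ES cells; each panel has its own axis. Dppa3 and Nr0b1 are higher in KD33 at both stages, Klf2, Prdm14 and Spp1 are higher in EB9 KD33, Lifr, Klf4 and Fbxo15 are lower in ES KD33, and Tbx3 is lower in EB9 KD33.

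The Dppa genes were named for expression in pluripotent cells, and Dppa3 had the largest change that passed of the 35 genes in ES cells. It encodes Stella, a protein that guards DNA methylation in the early embryo and marks primordial germ cells. Dppa3 had levels of -1.35, -0.82, -1.04 and -1.13 in EB9 KD33, against -2.59, -1.91, -1.95 and -2.13 in EB9 control. In ES cells it had 1.72, 1.69, 1.95 and 1.88 in KD33, against 0.18, 0.42 and 0.48 in control. The groups were apart at both stages. Dppa3 rose by 1.06 ± 0.15 in EB9 (2.08-fold, adjusted p = 0.000753) and by 1.45 ± 0.16 in ES cells (2.73-fold, adjusted p = 1.74e-05), and within slides the difference was 0.91 to 1.24 in EB9 and 1.27 to 1.54 in ES cells. Its probe lies at chr6:122580207-122580266 (build mm9).

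Of the other Dppa genes, Dppa2 and Dppa4 encode partner proteins with a SAP domain. Dppa2 fell in KD33 ES cells, with a difference of -0.29 ± 0.1 (adjusted p = 0.0355), a call lost without any single ES array except ES KD33 4 (adjusted p from 0.0548 to 0.0946). In EB9 Dppa2 differed by 0.29 ± 0.09 (adjusted p = 0.0506, or 0.0115 with the slide as a block). Dppa4 rose in KD33 EB9 by 0.32 ± 0.08 (adjusted p = 0.0179), a call lost in 5 other settings (adjusted p from 0.053 to 0.35), and did not pass in ES cells (0.11 ± 0.09, adjusted p = 0.358). Dppa5a, an RNA-binding protein gene, passed at neither stage (0.15 ± 0.11 in EB9 and 0.26 ± 0.12 in ES cells).

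Germ cell markers were set beside Dppa3, since it is also a germ cell gene. Of 8 such markers, 2 rose and none fell at each stage: Dazl and Ddx4 in EB9, by 0.55 ± 0.11 and 0.58 ± 0.13, and Ddx4 and Tfap2c in ES cells, by 0.48 ± 0.14 and 0.42 ± 0.1. Over all genes, 15.2% passed in EB9 and 38.5% in ES cells. The summed level of the 8, on a linear scale where the 75th percentile of an array is 1, ranged from 9.53 to 12.2 in EB9 KD33 and from 7.8 to 11.6 in EB9 control. In ES cells the sum ranged from 15 to 20 in KD33 and from 12.4 to 17.1 in control. All 8 were well above background on all 15 arrays, and their part in the Dppa3 difference was not tested.

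Among the 9 other regulators, 3 fell and none rose in KD33 EB9 (15.2% of all genes passed). In KD33 ES cells 1 rose and 3 fell (38.5% of all genes passed). Sall1, a spalt zinc finger gene, had levels of -2.22, -1.74, -1.94 and -2.02 in EB9 KD33, against -1.84, -1.19, -1.59 and -1.6 in EB9 control. In ES cells it had -0.69, -0.66, -0.67 and -0.57 in KD33, against 0.05, 0.03 and 0.14 in control. The ES groups were apart and the EB9 groups overlapped. Sall1 fell, with a difference of -0.43 ± 0.12 in EB9 (adjusted p = 0.0342) and of -0.72 ± 0.13 in ES cells (1.65-fold, adjusted p = 0.000841), and the EB9 call was lost in 8 other settings, 6 of which left out a single EB9 array.

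Sall4, its relative that partners with Oct4 in ES cells, fell in EB9, with a difference of -0.4 ± 0.1 (adjusted p = 0.0186) and rose in ES cells by 0.33 ± 0.11 (adjusted p = 0.0301), without overlap at either stage, and the stages differed by -0.73 ± 0.15 (adjusted p = 0.00256). The EB9 call was lost without EB9 KD33 1, EB9 KD33 3 or EB9 control 4 (adjusted p from 0.051 to 0.0612), and when the EB9 arrays were fitted alone (adjusted p = 0.0903). The ES call was lost without ES KD33 1, ES KD33 4, ES control 3 or ES control 4 (adjusted p from 0.0671 to 0.123), and it was also lost with the mean of all probes (0.21, adjusted p = 0.179), with scaling by the probes detected on all arrays (0.29, adjusted p = 0.0548) and with no filter on dim probes (adjusted p = 0.0511). Mycn fell in EB9, with a difference of -0.43 ± 0.08 (adjusted p = 0.00376) and did not pass in ES cells (0.09 ± 0.08, adjusted p = 0.439).

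Utf1, a chromatin protein of undifferentiated cells, fell in KD33 ES cells, with a difference of -0.49 ± 0.08 (adjusted p = 0.000472), and Zfp281 fell, with a difference of -0.37 ± 0.07 (adjusted p = 0.000864). The difference of Zfp281 between the stages was lost in 6 other settings, 4 of which left out a single ES array (adjusted p from 0.0505 to 0.0752). Neither passed in EB9, with -0.1 ± 0.08 for Utf1 and -0.07 ± 0.06 for Zfp281. Zfp57, which keeps methylation at imprinted genes, Rif1, known for its part in replication timing, Trim28 and Nr6a1 passed at neither stage. With the slide as a block Nr6a1 passed in ES cells (0.32 ± 0.11, adjusted p = 0.0321).

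Of the downstream genes, Spp1 had the largest rise of the 35 genes in KD33 EB9. Its levels were -1.04, -1.51, -1.26 and -1.15 in EB9 KD33, against -2.23, -1.98, -2.66 and -2.45 in EB9 control. In ES cells they were 2.8, 2.72, 2.63 and 2.65 in KD33, against 2.91, 2.77 and 2.61 in control. The EB9 groups were apart and the ES groups overlapped. Spp1 rose in EB9 by 1.09 ± 0.14 (2.14-fold, adjusted p = 0.000386), between 0.47 and 1.41 within slides, and differed by -0.06 ± 0.15 in ES cells (adjusted p = 0.794). The stages differed by 1.16 ± 0.2 (adjusted p = 0.000911). Osteopontin is also made by differentiated cells, bone cells among them.

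Fbxo15, a classical reporter gene of the ES cell state, had levels of -0.69, -0.42, -0.6 and -0.62 in EB9 KD33, against -1.03, -0.59, -0.73 and -0.66 in EB9 control. In ES cells it had 4.06, 4.12, 4.08 and 4.13 in KD33, against 4.65, 4.65 and 4.64 in control. It fell in ES cells, with a difference of -0.55 ± 0.09 (1.47-fold, adjusted p = 0.000411) without overlap, and differed by 0.17 ± 0.08 in EB9 (adjusted p = 0.215). Tcl1 passed at neither stage, with -0.15 ± 0.16 in EB9 and 0.03 ± 0.17 in ES cells.

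Jam2 depended on the probe. The probe that represents it, at chr16:84816558-84816617 (build mm9), differed by 0.03 ± 0.06 in EB9 and 0.07 ± 0.07 in ES cells. Another Jam2 probe at chr16:84811166-84811225 was lower in KD33 ES cells, with a difference of -1.03 ± 0.11 (adjusted p = 1.39e-05 over all kept probes), with 1.2 ± 0.14 in ES KD33 (SD, n = 4) and 2.24 ± 0.04 in ES control (SD, n = 3). The remaining Jam2 probe, at chr16:84824952-84825011, did not pass (0.15 ± 0.17, adjusted p = 0.554). Both probes that did not represent the gene were well above background on all 15 arrays.

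The wider network was examined through 25 other genes of ES cell pluripotency, all measured. In KD33 EB9, 3 of them rose and 2 fell, with a median difference of -0.09, where 15.2% of all genes passed. In KD33 ES cells 2 rose and 4 fell, with a median of 0.01, where 38.5% of all genes passed. The largest changes that passed in EB9 were those of Lin28a, an RNA-binding protein that blocks let-7 maturation, with a difference of -0.82 ± 0.2 (adjusted p = 0.0169), and of the Nodal co-receptor gene Tdgf1 (Cripto), by 0.45 ± 0.11 (adjusted p = 0.0197). In ES cells they were those of Manba, a lysosomal mannosidase gene, by -1.24 ± 0.07 (adjusted p = 7.95e-08), and of L1td1, by -0.88 ± 0.12 (adjusted p = 7.88e-05).

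Genes of the primed epiblast, the state that follows the naive state, changed in both directions. Of 14 measured, 1 rose and 6 fell in KD33 EB9 (median -0.41), where 15.2% of all genes passed. In KD33 ES cells 5 rose and 4 fell (median 0.18), where 38.5% of all genes passed. In EB9 the largest changes were those of Fgf15, a growth factor gene, by -1.07 ± 0.17 (adjusted p = 0.00161), and of the T-box gene Eomes, by -0.89 ± 0.11 (adjusted p = 0.000317). In ES cells Otx2, a homeobox factor that drives the exit from the naive state, fell, with a difference of -1.48 ± 0.16 (adjusted p = 1.21e-05), with -0.53 ± 0.08 in KD33 and 0.95 ± 0.08 in control (SD, n = 4 and 3). Fgf5, a marker of the primed epiblast, was well above background on all 4 ES KD33 arrays and on no ES control array, and was at least 1.92-fold higher in KD33 (adjusted p = 0.000689).

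Markers of differentiated cells were summed in the same groups. In EB9 the summed linear level of the 16 germ layer markers ranged from 340 to 427 in KD33 and from 314 to 445 in control, and that of the 12 fibroblast markers from 111 to 173 in KD33 and from 105 to 155 in control. In ES cells the germ layer sum ranged from 15.2 to 16.5 in KD33 and was 12 on the control arrays, and the fibroblast sum ranged from 5.51 to 6.09 in KD33 and from 4.94 to 5.29 in control. Such sums follow the brightest probes most and do not describe a list as a whole. In ES cells the brightest germ layer probes were those of the keratin genes Krt18 and Krt8. Krt18 averaged 3.21 in ES KD33 and 2.71 in ES control, and Krt8 averaged 1.58 and 1.2. Of the 16 germ layer markers, 5 rose and 1 fell in KD33 ES cells, and none rose and 3 fell in KD33 EB9. The marker that fell in ES cells was Afp (-0.98 ± 0.15, adjusted p = 0.000225). Afp was well above background on no ES array, so that its call lies below detection in both ES groups. Of the fibroblast markers, 1 rose and 1 fell in KD33 ES cells, and 2 fell in KD33 EB9. For comparison, 38.5% of all genes passed in ES cells and 15.2% in EB9. Of the 12 fibroblast markers, 7 were well above background on every ES KD33 array and 6 on every ES control array, while Col3a1, Dcn, Fap, Lum and Postn were not so on any ES array. The fibroblast marker that rose was Twist2, a basic helix-loop-helix factor, which was well above background on all 4 ES KD33 arrays and on no ES control array (at least 2.06-fold higher in KD33, adjusted p = 3.21e-07), and the marker that fell was Col1a1, a chain of collagen I (-0.42 ± 0.07, adjusted p = 0.000462). The summed linear level of the 35 genes ranged from 68.8 to 77.9 in EB9 KD33 and from 65.5 to 74.9 in EB9 control, and from 479 to 550 in ES KD33 and from 537 to 549 in ES control. Dppa5a had the brightest of these probes in ES cells, with means of 7.18 in KD33 and 6.93 in control. The part of differentiated cells in the differences of the 35 genes was not tested.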

How the data were processed

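RNA of 15 samples (500 ng each, oligo-dT primed, Cy3 labelled) was hybridised to 1-colour Agilent arrays, 1 array a sample. The authors deposited the scanner output with processed signal intensity per spot, made with Feature Extraction 10.7.3.1 per the file headers, and a table of log2 values, which the authors deposited with no normalization stated in the labels or headers. Here log2 of the processed signal minus the 75th percentile of each array was used. Spots with outlier flags were left out, repeated spots were averaged, and 27250 of 39429 probes that were well above background on at least 3 arrays of a group were kept. The brightest probe stood for each of 21184 genes. limma 3.58.1 (R 4.3.3) fitted 4 group means to the 15 arrays (degrees of freedom: 11 residual, 1.61 prior), with two-sided tests and Benjamini-Hochberg adjustment over all genes, and was tested on simulated data. The number of arrays limits the precision. Probe coordinates are those of the files (mm9), and the exon or UTR of a probe was not looked up. The 35 members and all gene lists were chosen with earlier results of these data known. Values of every array are given for members that passed in either KD33 comparison with a difference of at least 0.5, for the core factors and for a few genes added after their values were seen (Socs3 and Gbx2). Other genes were named from the lists. The germ cell and fibroblast markers that passed, and the germ layer marker Afp, were named after their values were seen. Deviations of arrays on the same slide correlated with a median r of 0.43 (0.21 to 0.63), and those of arrays on different slides with -0.31 (-0.59 to 0.49). The main fit held no term for the slide. Same-numbered arrays correlated with a median r of 0.34 (-0.59 to 0.55). Replicate number and slide were the same except in ES control, so that these values cannot show whether replicate numbers pair the samples. The alternatives were normexp, quantile and other percentile scaling, the authors' log2 table, other probe filters, the mean of probes, slide and replicate blocks, array weights, a fit of only the groups compared, and leaving out each array.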

Additional observations from a re-analysis of the deposited data

Results flagged for a closer look

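In 5 of 105 groups of 4 arrays, 1 array stood far from the other 3 for a gene, and chance alone flags about 1 in 20 groups. Klf4 was -0.43 on EB9 KD33 1, against -0.21, -0.17 and -0.17 on the other EB9 KD33 arrays. Tbx3 was 4.08 on ES KD33 1, against 4.17, 4.18 and 4.18. Dppa5a was 3.49 on EB9 control 1, against 3.86, 3.88 and 3.89. Prdm14 was 1.11 on ES KD33 2, against 0.99, 0.99 and 1.01, and Zfp57 was -0.76 on ES KD33 2, against -0.45, -0.43 and -0.39.

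For 16 genes the KD33 effect in EB9 minus that in ES cells passed limma's test of the difference itself. It was positive for Spp1 (1.16, adjusted p = 0.000911), Lifr (0.86, 0.00336), Klf4 (0.85, 0.000417), Nr5a2 (0.84, 0.000161), Socs3 (0.83, 5.88e-05), Klf2 (0.82, 0.000626) and Prdm14 (0.79, 0.00214). It was also positive for Fbxo15 (0.72, adjusted p = 0.000899), Zfp42 (0.63, 0.00109), Dppa2 (0.58, 0.00601), Klf5 (0.54, 0.000924), Utf1 (0.40, 0.0187) and Zfp281 (0.29, 0.0282). It was negative for Sall4 (-0.73, adjusted p = 0.00256), Tbx3 (-0.65, 0.0424) and Mycn (-0.52, 0.0045).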

How the results depend on the processing

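Over all settings run, 6 of the 15 KD33 calls in EB9 (Klf2, Dppa3, Prdm14, Spp1, Mycn and Socs3), 12 of the 15 in ES cells and 14 of the 16 differences between the stages (not Tbx3 and Zfp281) kept their side of the threshold. Of the EB9 against ES calls, 33 of 34 did so in KD33 (not Zfp281) and 33 of 34 in control (not Nr6a1). When only the groups compared were fitted, which leaves fewer samples, 6 genes rose and 1 fell in EB9. Of all 21184 genes, 655 rose and 478 fell in that fit. With array weights, 12 genes rose in ES cells and 7 differences between the stages were negative, where 7657 and 5521 of all 21184 genes did so. The cause was not tested. With the replicate number as a block, 5 differences between the stages were negative (3925 over all genes), and Stat3, Klf4 and Dppa2 passed in EB9. Averaging all probes turned the sign of Jam2 in ES cells (-0.27) and of its difference between the stages (0.37), because its probes disagree. Leaving out each array gave 7 to 12 higher and 2 to 4 lower genes in EB9, 2 to 5 and 10 to 13 in ES cells, 12 to 15 and 2 to 4 for the difference between the stages, and 31 to 32 lower genes for EB9 against ES cells in control. The arrays that moved a count by over 1.5 times were EB9 KD33 4 (7 higher in EB9), EB9 KD33 1, EB9 KD33 3 and EB9 control 4 (2 lower in EB9 without each), and ES KD33 4 and ES control 3 (2 higher in ES cells without each). Over all genes, 3211 passed in EB9, and 5664 with the slide as a block. Arrays have no read depth, and dim probes limit what can be measured.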
